A study of Mus musculus with 6 samples.

Results

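T cell and cytotoxic lymphocyte genes were followed in mouse pancreatic islets, the hormone-producing cell clusters of the pancreas, at 6 times around the day. The set held 33 genes, chosen by name with earlier results of these data known, so counts set beside all genes are descriptive. A gene was taken where a probe on the array carried a RefSeq transcript of it. All 33 had such a probe, 42 probes in all, among 39429 probes on the array, and all 33 were among the 24127 genes that passed the filter on dim spots. The animals were male C57BL6 mice aged 8 weeks, with no genetic change or drug, fed chow and housed with 12 h light and 12 h dark each day. Islets freed with collagenase were taken at zeitgeber times ZT0, ZT4, ZT8, ZT12, ZT16 and ZT20, where ZT0 is lights on and ZT12 lights off. RNA of 3 to 5 mice was pooled at each time and hybridised to 1 array, so every value below is 1 array of 1 pool and no time had a replicate.

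A T cell recognises antigen through a receptor whose variable chains carry no signalling part of their own and are coupled to the CD3 chains. The kinase LCK, held by the co-receptors CD4 and CD8, phosphorylates the CD3 chains, ZAP-70 then binds them, and the adaptor LAT passes the signal on. Naive T cells keep TCF7 and LEF1, survive on IL-7 and home to lymph nodes through CCR7, whereas cytotoxic cells carry granules of perforin and granzymes. Islets of healthy mice hold few T cells, and lymph nodes lie close to the pancreas.

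Values are processed signals on a log2 scale after subtraction of the array's own 75th percentile, here called the level, so 0 is the 75th percentile of that array and 1 unit is a 2-fold difference. Levels are compared between arrays for 1 probe, not between genes. Of the spots on an array, 66.1% (ZT4) to 84.4% (ZT0) were well above background, and 0 were saturated. Outlier spots numbered 1743 at ZT0 and 166 to 247 elsewhere. The signal at the 75th percentile was lowest at ZT4 (506) and highest at ZT8 (2090). Arrays ZT8 to ZT20 lay on the same slide and were scanned together, while ZT0 and ZT4 were each scanned separately, so for these 2 arrays scan and time cannot be told apart. The islet hormone genes were well above background: Iapp, which encodes amylin, had levels of 8.56, 8.13, 7.05, 6.91, 7.52 and 7.33 from ZT0 to ZT20, and Ins2, an insulin gene, 6.94, 8.75, 7.23, 7.44, 7.60 and 7.50. Of the 33 genes of the set, 30 were well above background on all 6 arrays. Cd247 was so on 3 arrays, Lef1 on 4 and Sh2d1a on 5.

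Most of the set had 1 shape. Levels were high at ZT4 and ZT12, lower between them at ZT8, and lowest at ZT16 and ZT20. In 26 of 33 genes the highest array was ZT4 or ZT12 and the lowest ZT16 or ZT20, which held for 17.2% of all genes tested. The highest level was at ZT4 in 14 genes, against 24.2% of all genes, and at ZT12 in 13, against 16.3%. It was at ZT0 in 3 genes (21.5% of all), at ZT8 in 2 (5.89%) and at ZT16 in 1 (17.2%). The lowest was at ZT16 in 19, against 10.9%, at ZT20 in 12, against 12.4%, and at ZT0 in 2, against 26.4%. Which of the paired arrays was the extreme one depended on the scaling: with quantile normalization 9 genes were highest at ZT4 and 19 at ZT12, and 12 were lowest at ZT16 and 18 at ZT20, while with each array scaled to its median 11 were lowest at ZT16 and 20 at ZT20. The ratio of highest to lowest array was 16-fold or more in 24 of 33, against 9.67% of all genes, with a median of 61.7-fold in the set and 3.90-fold over all genes. In pooled tissue RNA, fewer cells of a type and less RNA per cell cannot be told apart.

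**Figure D1:**
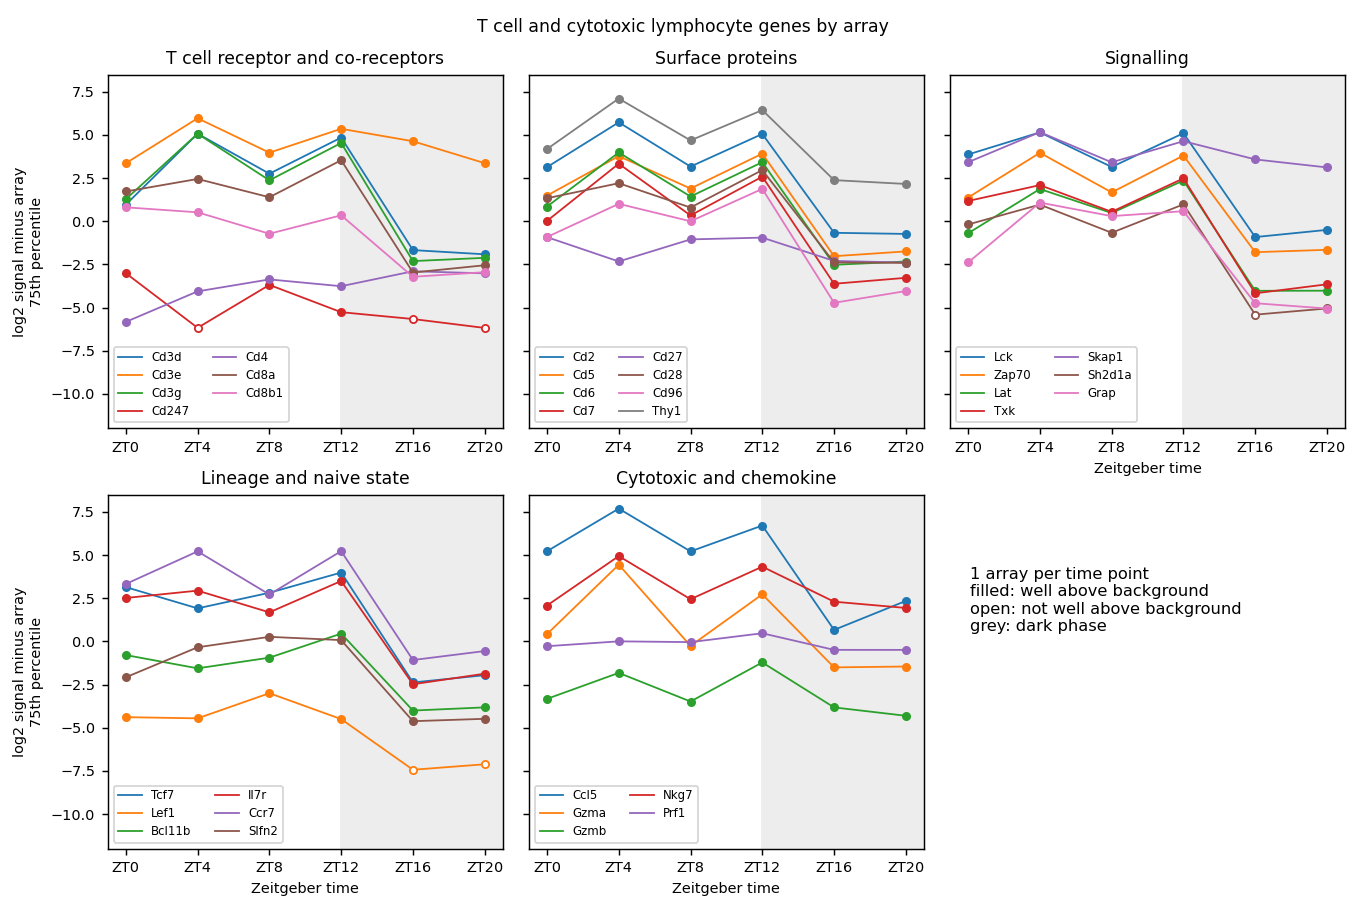
Level of each of the 33 genes (log2 signal minus the 75th percentile of the array) against zeitgeber time, with 1 array per time, in 5 groups by role. Filled points were well above background, open points were not, and grey marks the dark phase; most lines are high at ZT4 and ZT12 and low at ZT16 and ZT20, while Cd3e, Cd4, Cd27, Skap1 and Prf1 stay within a narrower band.

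The receptor genes held the widest range of the set and 4 genes, Cd3e, Cd247, Cd4 and Cd8b1, whose highest or lowest array lay elsewhere. Cd3g, which encodes the gamma chain of CD3, had levels of 1.28, 5.07, 2.37, 4.53, -2.31 and -2.12 from ZT0 to ZT20, a range of 167-fold. For Cd3d, the delta chain, they were 0.96, 5.07, 2.75, 4.85, -1.67 and -1.92, a range of 127-fold. In both genes the ZT16 and ZT20 levels lay below all of the others. At ZT16 the level was 115-fold lower than at ZT12 for Cd3g and 91.8-fold lower for Cd3d. Cd3e, the epsilon chain, had levels of 3.36, 5.97, 3.97, 5.36, 4.63 and 3.36, and at ZT16 it was 1.65-fold lower than at ZT12. Its high arrays were again ZT4 and ZT12, but ZT16 lay above ZT8 and its lowest arrays were ZT0 and ZT20.

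Cd3g, Cd3d and Cd3e are neighbours in that order on mouse chromosome 9. Their upstream windows are shown because these adjacent genes of 1 complex gave unlike values at ZT16. These genes had 1 probe each, and whether the difference belongs to the gene or to the probe was not tested. Each window is the 250 bases before the RefSeq start of the gene in GRCm38.p6, written 5′ to 3′ on the strand of the gene: chr9:44980432-44980681, minus strand, for Cd3g, chr9:44981536-44981785, plus strand, for Cd3d, and chr9:45009612-45009861, minus strand, for Cd3e. Capitals mark CAGGAA, a core that ETS factors bind, and CTTTGA, a core that TCF7 and LEF1 bind, on either strand.
Cd3g: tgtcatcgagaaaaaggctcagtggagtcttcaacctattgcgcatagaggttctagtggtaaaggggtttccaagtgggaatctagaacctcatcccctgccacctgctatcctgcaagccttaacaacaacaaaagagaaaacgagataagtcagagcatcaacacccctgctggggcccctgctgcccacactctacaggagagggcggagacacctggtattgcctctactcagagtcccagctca
Cd3d: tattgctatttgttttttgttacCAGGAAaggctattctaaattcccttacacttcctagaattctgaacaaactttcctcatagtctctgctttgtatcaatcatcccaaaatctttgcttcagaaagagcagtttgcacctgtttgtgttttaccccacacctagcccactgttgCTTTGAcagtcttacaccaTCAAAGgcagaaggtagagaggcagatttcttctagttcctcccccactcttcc
Cd3e: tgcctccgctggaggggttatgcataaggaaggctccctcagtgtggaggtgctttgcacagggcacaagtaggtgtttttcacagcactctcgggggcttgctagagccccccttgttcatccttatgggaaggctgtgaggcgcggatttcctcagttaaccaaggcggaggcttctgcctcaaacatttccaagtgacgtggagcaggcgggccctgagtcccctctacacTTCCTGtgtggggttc
The Cd3d window held 1 ETS match, which began 227 bases before the start, and 2 TCF/LEF matches, 73 and 54 bases before it. The Cd3e window held 1 ETS match, 16 bases before the start, and the Cd3g window held no match to either core. A match is a description of the letters, not a site of binding.

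Cd8a, the CD8 alpha chain of cytotoxic T cells, had levels of 1.72, 2.45, 1.39, 3.54, -2.97 and -2.55, and at ZT16 it was 91.0-fold lower than at ZT12. This was the mean of 10 spots of its probe on each array. Cd8b1, the beta chain, had 0.81, 0.52, -0.72, 0.34, -3.22 and -2.95, with its highest level at ZT0 and an 11.8-fold lower level at ZT16 than at ZT12. Both chains of CD8 were thus lowest at ZT16 and next lowest at ZT20. Cd247, the zeta chain, had levels of -3.01, -6.18, -3.69, -5.27, -5.67 and -6.18, and its spots at ZT4, ZT16 and ZT20 were not well above background. No fold between ZT16 and ZT12 is given for it, and it was at least 5.49-fold higher on its brightest array, ZT0, than on its dimmest.

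For Cd4, the co-receptor of helper T cells, the direction depended on the probe. The probe that passed the filter, with 10 spots per array, had levels of -5.83, -4.06, -3.37, -3.76, -2.90 and -3.02, with its highest value at ZT16, and gave a difference of 0.87 for ZT16 minus ZT12. The other probe was left out because its spot was an outlier on the ZT0 array. It had 5.98, 5.16, 3.39, 4.73, 2.93 and 2.66, and was 3.48-fold lower at ZT16 than at ZT12. The second probe thus had its lowest levels at ZT16 and ZT20, where the first had its highest.

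Of the 8 surface protein genes, 7 had the shared shape. Thy1, the classic pan-T cell marker of mice, had levels of 4.18, 7.11, 4.68, 6.44, 2.38 and 2.16, and Cd2, an adhesion receptor, had 3.13, 5.73, 3.17, 5.06, -0.67 and -0.73. At ZT16 they were 16.7-fold and 52.9-fold lower than at ZT12. Cd5, which restrains receptor signalling, had 1.49, 3.77, 1.89, 3.92, -2.03 and -1.75. Cd28, the co-stimulatory receptor for CD80 and CD86, had levels of 1.33, 2.20, 0.79, 2.96, -2.39 and -2.41. Both were highest at ZT12, and at ZT16 Cd5 was 61.5-fold and Cd28 40.9-fold lower than at ZT12.

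Cd7, a co-receptor of T and NK cells, had levels of 0.02, 3.33, 0.34, 2.58, -3.62 and -3.28, a range of 124-fold. Cd96, an adhesion receptor of T and NK cells, had -0.92, 1.01, 0.00, 1.87, -4.73 and -4.05, a range of 97.0-fold. Cd6, a relative of Cd5, had 0.85, 3.98, 1.43, 3.42, -2.52 and -2.33, a range of 91.0-fold. In each of these 3 genes all light-phase arrays and ZT12 lay above ZT16 and ZT20. Cd27, a co-stimulatory receptor of naive and memory cells, did not share the shape on the probe used: its levels were -0.92, -2.33, -1.05, -0.95, -2.30 and -2.39, with ZT4 among its low arrays and a range of 2.78-fold.

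Of the 7 signalling genes, 6 had a range of 16-fold or more. Lck, the first kinase of the cascade, had levels of 3.87, 5.15, 3.14, 5.10, -0.92 and -0.50, and Zap70, the kinase that binds CD3, had 1.37, 3.97, 1.67, 3.80, -1.79 and -1.66. At ZT16 Lck was 64.8-fold and Zap70 48.4-fold lower than at ZT12. Lat, the adaptor phosphorylated by ZAP-70, had -0.70, 1.87, 0.48, 2.36, -4.03 and -4.02. Txk, a kinase of the Tec family, had levels of 1.17, 2.09, 0.55, 2.48, -4.18 and -3.65, and it was 101-fold lower at ZT16 than at ZT12. These kinases and the adaptor were highest at ZT4 or ZT12 and lowest at ZT16.

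Sh2d1a, which encodes the adaptor SAP of SLAM receptors, had levels of -0.19, 0.96, -0.67, 0.98, -5.41 and -5.05, and at ZT16, where it was not well above background, it was at least 71.3-fold lower than at ZT12. Grap, an adaptor of lymphocytes, had -2.39, 1.08, 0.30, 0.58, -4.75 and -5.06. It differed from the others in a low ZT0 level and a small step of 1.22-fold between ZT12 and ZT8. Skap1, an adaptor that couples the receptor to integrin adhesion, had levels of 3.42, 5.16, 3.41, 4.64, 3.58 and 3.12, a range of 4.13-fold. It was 2.08-fold lower at ZT16 than at ZT12, the smallest such difference among the 7 signalling genes.

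Among the 6 genes of T cell identity and of the naive state, 0 were highest at ZT4, 4 were highest at ZT12 and 2 at ZT8. Tcf7, the transcription factor TCF-1, had levels of 3.15, 1.92, 2.82, 3.99, -2.38 and -1.96, and Bcl11b, a factor needed to commit to the T lineage, had -0.79, -1.56, -0.94, 0.45, -4.01 and -3.82. In both, ZT4 was the lowest of the arrays up to ZT12. Of the 22 receptor, surface and signalling genes, 11 were highest at ZT4, and the difference between the groups was not tested. At ZT16 Tcf7 was 82.6-fold and Bcl11b 22.0-fold lower than at ZT12.

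Il7r, the receptor chain for IL-7, had levels of 2.52, 2.94, 1.68, 3.50, -2.48 and -1.87, and Ccr7, the lymph node homing receptor, had 3.33, 5.22, 2.72, 5.23, -1.08 and -0.56. The ZT4 and ZT12 levels of Ccr7 were nearly equal. At ZT16 Il7r was 63.2-fold and Ccr7 79.3-fold lower than at ZT12. Slfn2, which keeps T cells quiescent, had -2.08, -0.34, 0.27, 0.08, -4.62 and -4.48, with no dip at ZT8. Lef1, the partner of TCF-1, had levels of -4.39, -4.46, -3.00, -4.50, -7.43 and -7.12. Its spots at ZT16 and ZT20 were not well above background, so that it was at least 5.54-fold higher on its brightest array than on its dimmest.

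The 5 cytotoxic and chemokine genes were all highest at ZT4 or ZT12 and lowest at ZT16 or ZT20, with ranges of very different size. Ccl5, a chemokine of memory and cytotoxic T cells, had levels of 5.23, 7.70, 5.22, 6.71, 0.67 and 2.35, a range of 130-fold, and Gzma, granzyme A, had 0.42, 4.45, -0.26, 2.73, -1.50 and -1.45, a range of 61.7-fold. At ZT16 Ccl5 was 66.1-fold and Gzma 18.8-fold lower than at ZT12. Gzmb, granzyme B, had -3.33, -1.82, -3.48, -1.22, -3.82 and -4.31. Nkg7, a granule protein, had levels of 2.08, 4.95, 2.45, 4.33, 2.30 and 1.94. Gzmb was 6.08-fold and Nkg7 4.08-fold lower at ZT16 than at ZT12, and in both ZT0 and ZT8 lay within 1 unit of ZT16. Prf1, the pore-forming protein perforin, had the narrowest range of the 33 genes, 1.95-fold, with levels of -0.28, 0.00, -0.04, 0.47, -0.49 and -0.49.

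Prf1 and Gzma had 1 probe each, and whether their unlike ranges belong to the gene or to the probe was not tested. The upstream windows of Prf1 and Gzma are shown because these partners in granule killing had unlike ranges. They are chr10:61297586-61297835, plus strand, for Prf1 and chr13:113100982-113101231, minus strand, for Gzma, from RefSeq in GRCm38.p6. Capitals mark CAGGAA, as above, and TGTGGT, a core that RUNX factors bind, on either strand.
Prf1: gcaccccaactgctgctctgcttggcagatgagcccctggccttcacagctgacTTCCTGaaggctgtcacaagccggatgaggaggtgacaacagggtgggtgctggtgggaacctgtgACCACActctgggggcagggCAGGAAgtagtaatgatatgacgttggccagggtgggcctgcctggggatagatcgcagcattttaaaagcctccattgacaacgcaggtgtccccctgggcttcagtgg
Gzma: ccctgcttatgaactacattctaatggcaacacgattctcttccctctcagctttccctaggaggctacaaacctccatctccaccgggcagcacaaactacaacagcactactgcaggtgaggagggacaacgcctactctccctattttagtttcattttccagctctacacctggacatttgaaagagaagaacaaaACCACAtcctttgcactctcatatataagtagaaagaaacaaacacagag
The Prf1 window held 2 ETS matches, 196 and 110 bases before the start, and 1 RUNX match 130 bases before it. The Gzma window held 1 RUNX match, 50 bases before the start. RefSeq windows were given for 21 of the 33 genes, 29 windows in all, and 15 of these held CAGGAA, against 25.7% of all 32817 windows. TGTGGT was in 8 of 29, against 14.0% of all windows, and CTTTGA in 5 of 29, against 13.8%. Of motifs known from the clock, the E-box CACGTG was in 2 of 29 windows (Lat and Lef1), against 6.0% of all, and AGGTCA, which REV-ERB and ROR factors bind, in 2 (Zap70 and Tcf7), against 14.0%. In 1 Zap70 window the ETS and RUNX matches overlapped.

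The steps between neighbouring times were then compared over the whole set, with a step counted from 2-fold. At ZT4, 22 of 33 genes were higher than at ZT0, against 25.8% of all genes, and 3 (Cd247, Cd27 and Tcf7) were lower, against 21.5%. The median difference was 1.77, against 0.07 over all genes. At ZT8, 24 genes were lower than at ZT4, against 21.3%, and 3 (Cd247, Cd27 and Lef1) were higher, against 15.9%, with a median of -1.63. At ZT12, 26 genes were higher than at ZT8, against 13.4%, and 2 (Cd247 and Lef1) were lower, against 17.7%, with a median of 1.88. The dip at ZT8, at least 2-fold below both ZT4 and ZT12, was present in 24 of 33 genes, against 9.10% of all genes. It was absent in Cd247, Cd4, Cd27, Grap, Tcf7, Lef1, Bcl11b, Slfn2 and Prf1, 4 of which belong to the 6 identity and naive-state genes. The step from ZT4 to ZT8 was also seen outside the set. Of 9 reference genes, 6 were at least 2-fold lower at ZT8 and 1 was higher, with a median of -1.23. Of 11 acinar genes 5 were lower and 1 was higher, and of 16 endocrine genes 3 were lower and 11 higher. At ZT12, 0 of the 9 reference genes and 0 of the 11 acinar genes were at least 2-fold higher than at ZT8.

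The step between ZT12 and ZT16, the first dark-phase interval, was the widest. At ZT16, 28 of 33 genes were lower than at ZT12, against 20.3% of all genes, and 0 were higher, against 22.3%. The median difference was -5.60, a 48.4-fold lower level, against 0.05 over all genes. The 5 genes outside the count of 28 were Cd3e, Cd247, Cd4, Lef1 and Prf1. Cd3e and Prf1 were 1.65-fold and 1.95-fold lower. Lef1 was at least 1.60-fold lower, a bound, since its ZT16 spot was not well above background. Cd247 gave no fold, and the Cd4 probe that was left out was 3.48-fold lower. Between ZT20 and ZT16 the set was level: 1 gene was lower at ZT20, Cd3e by 1.27 log2 units, against 2.44% of all genes, and 1 was higher, Ccl5 with a difference of 1.68, against 5.04%. The steps from ZT8 on lie within the shared slide and scan, and those that involve ZT0 or ZT4 lie across scans. With quantile normalization the count lower at ZT8 than at ZT4 was 15 with a median of -0.91.

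**Figure D2:**
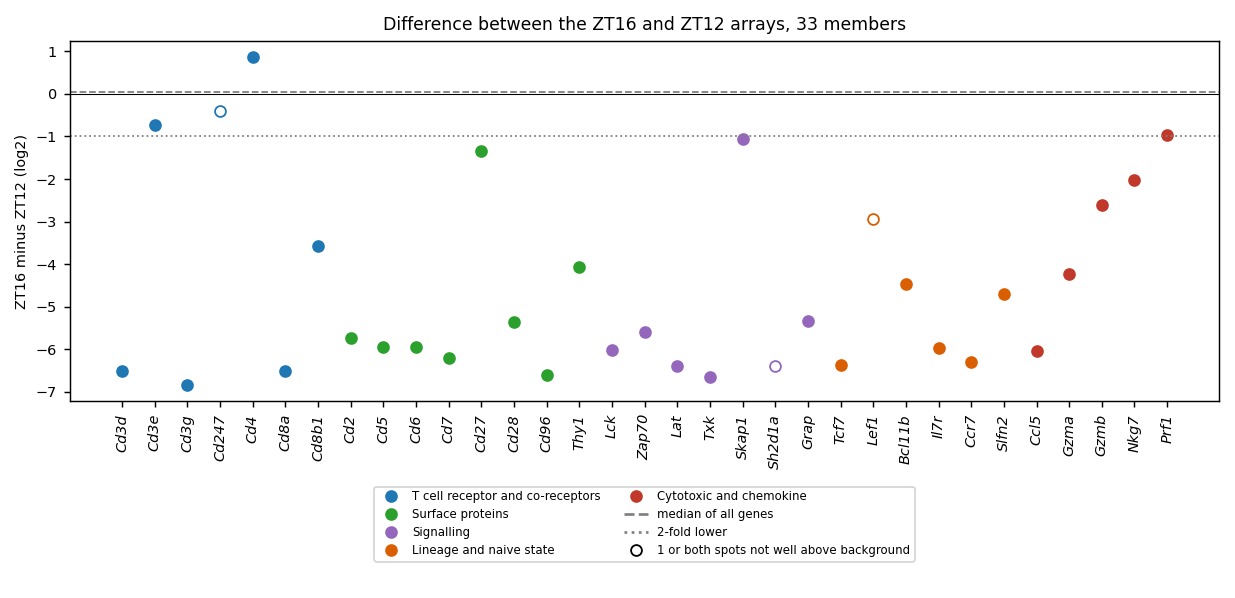
Difference in level between the ZT16 and ZT12 arrays (log2) for each of the 33 genes, coloured by role, with 1 array per time and therefore no error bar; open points had 1 or both spots not well above background. The dashed line is the median of all genes (0.05) and the dotted line a 2-fold lower level. Most genes lie below the dotted line, and Cd4 lies above 0.

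The naive, signalling and cytotoxic genes were set side by side by the median, over each group, of the deviation from the mean of each gene over the 6 arrays. The signalling genes had medians of 0.15, 2.53, 0.80, 2.54, -3.36 and -3.35 from ZT0 to ZT20. For the identity and naive-state genes the medians were 0.92, 1.11, 1.20, 2.34, -3.14 and -2.77, and for the cytotoxic genes -0.31, 1.94, -0.48, 1.78, -0.83 and -1.31. Signalling genes thus stood high at both ZT4 and ZT12, naive-state genes highest at ZT12, and cytotoxic genes had the smallest deviation at ZT16. The median difference between ZT4 and ZT0 was 1.74 for signalling, 0.18 for naive-state and 2.47 for cytotoxic genes. Between ZT16 and ZT12 the medians were -6.02, -5.34 and -2.60 in the same order. These groups differ in size (7, 6 and 5 genes) and no difference between them was tested. With the mean of all probes of a gene in place of 1 probe, the cytotoxic medians were -1.53 at ZT16 and -2.18 at ZT20.

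A pair of probes was present for 9 of the 33 genes, and their agreement varied. For Zap70 the other probe had levels of -0.34, 1.20, 0.24, 2.02, -3.16 and -3.25, again high at ZT4 and ZT12 and low at ZT16 and ZT20, and was 36.3-fold lower at ZT16 than at ZT12. The other Cd2 probe, with -1.34, -0.54, -0.17, 0.74, -4.15 and -3.62, was 29.7-fold lower at ZT16 but had no dip at ZT8. Those of Cd8a and Bcl11b were at least 21.4-fold and 5.85-fold lower, as bounds, since their spots at ZT16 were not well above background. These 4 genes were lower at ZT16 on both probes. At ZT4 the Cd8a probes disagreed: the other one was at least 4.07-fold lower than at ZT0, and the probe used was 1.65-fold higher.

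In Cd27, Nkg7 and Cd6 the probes of a gene gave unlike ranges. The other Cd27 probe had levels of -2.69, -1.33, -0.41, 0.31, -5.48 and -5.32 and was at least 44.7-fold lower at ZT16 than at ZT12, against 2.55-fold on the probe used. The other Nkg7 probe had -1.45, 1.13, 0.52, 2.13, -3.18 and -4.16 and was 39.8-fold lower, against 4.08-fold. In Cd6 the case was turned round: the other probe, with -2.99, -3.87, -2.76, -2.82, -2.85 and -2.86, was 1.02-fold lower, against 61.7-fold on the probe used. The other Tcf7 probe was well above background on 2 arrays, ZT0 and ZT8, and gives no fold between ZT16 and ZT12. It was at least 18.7-fold lower at ZT12 than at ZT8, where the probe used was 2.25-fold higher at ZT12. The narrow range of Cd27 and the moderate one of Nkg7 therefore belong to the probe with the higher mean and not to every probe of the gene. For Cd3e, Skap1 and Prf1, with 1 probe each, no such check could be made.

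**Figure D3:**
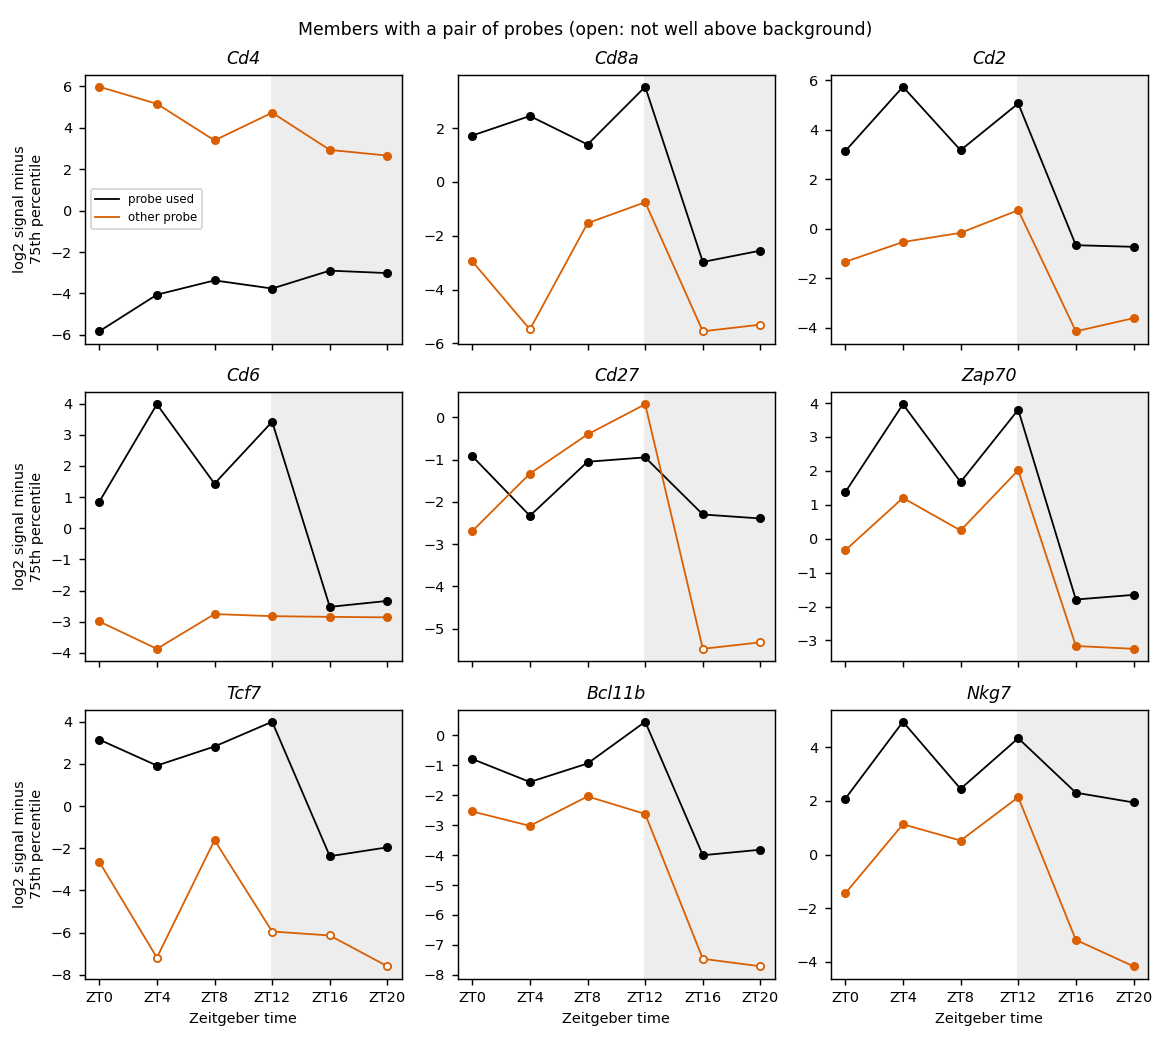
Levels of the probe used (black) and the other probe (orange) of the 9 genes with a pair of probes (log2 signal minus the 75th percentile of the array) against zeitgeber time, 1 array per time, each panel with its own scale; open points were not well above background and grey marks the dark phase. Probe pairs of Cd2, Cd8a, Zap70 and Bcl11b are both low at ZT16, while those of Cd4, Cd6, Cd27 and Nkg7 differ in shape or range.

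Whether these genes follow a 24 h rhythm was tested with a cosine fitted to the 6 arrays by limma. Of the 24127 genes, 0 passed at an adjusted p of 0.05, and 965 had an unadjusted p under 0.05, which is 4.00%. In the set, 0 of 33 passed, with a smallest adjusted limma p of 0.754, and 18 of 33 had an unadjusted limma p under 0.05. Those 18 were 6 of 8 surface genes, 6 of 7 signalling genes, 3 of 6 identity and naive-state genes, 2 of 7 receptor genes and 1 of 5 cytotoxic genes. Amplitudes, the fitted peak minus the trough, had a median of 5.31 log2 units in the set and 1.33 over all genes.

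Grap had the smallest unadjusted limma p, 0.00163, with an amplitude of 6.71 ± 1.11 (SE) and a fitted peak at ZT7.05. Next came Slfn2, with 5.45 ± 0.99, a peak at ZT7.13 and an unadjusted limma p of 0.00275, and Lef1, with 4.11 ± 0.96, a peak at ZT6.28 and 0.0108. The Lef1 fit took its dim spots at ZT16 and ZT20 at their measured values, so its amplitude and p rest on undetected spots; its range is known only as at least 5.54-fold. None of these 3 genes met the 2-fold dip at ZT8. Cd3g had the largest amplitude of the set, 6.96 ± 1.76 with an unadjusted limma p of 0.0163, and Cd3d had 6.86 ± 1.65 with 0.0128. The smallest were those of Prf1, 0.73 ± 0.70, Cd27, 0.87 ± 0.93, Skap1, 1.15 ± 0.93, and Cd247, 1.25 ± 1.38. Their unadjusted limma p values were 0.599, 0.657, 0.504 and 0.678 in that order.

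The fitted peak lay between ZT6 and ZT10 in 28 of 33 genes, against 19.3% of all genes. That window includes ZT8, where 24 of the 33 genes dipped, and in 21 of those 24 the fitted peak lay in the window, near an array below both of its neighbours. Cd4, on the probe used, had the latest fitted peak, ZT13.9, and Cd247 the earliest, ZT4.42. The count of 18 genes rested on single arrays: it was 2 without the ZT20 array, 4 without ZT4, 6 without ZT16 and 17 to 25 without 1 of the others. With scan as a covariate, which leaves the 4 arrays scanned together and 1 residual degree of freedom, 3 genes had an unadjusted limma p under 0.05.

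**Figure D4:**
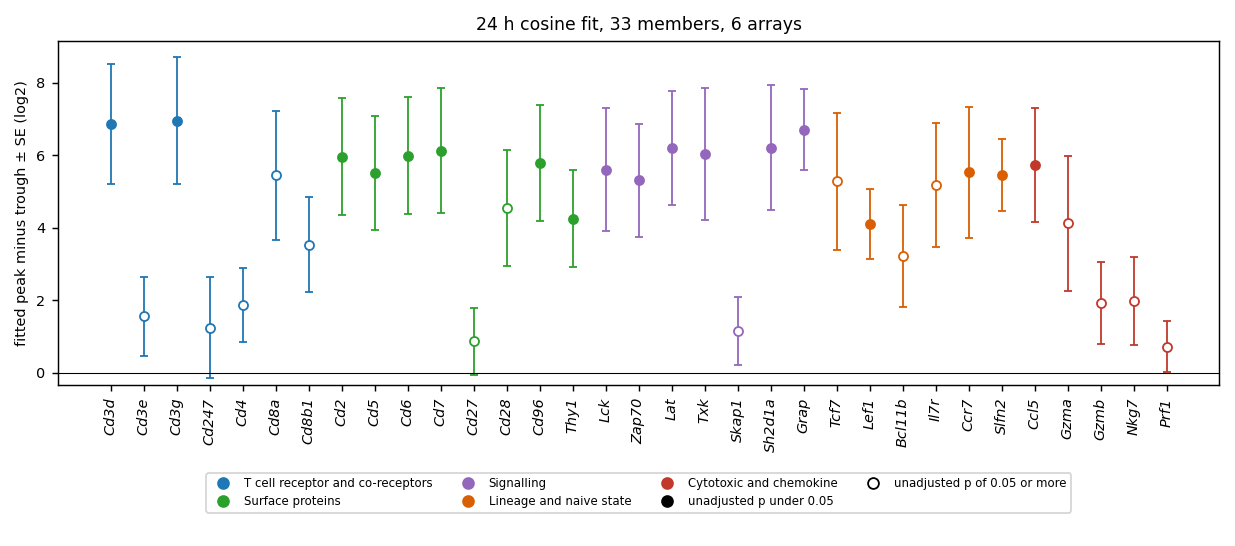
Fitted 24 h amplitude (peak minus trough, log2) with its SE for each of the 33 genes, from 6 arrays, coloured by role; filled points had an unadjusted limma p under 0.05 (18 genes) and open points did not. None passed after adjustment over all genes; Cd3g is the highest at 6.96 and Prf1 the lowest at 0.73.

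Other T cell signalling genes were also mostly lower at ZT16 than at ZT12. Of 27 further genes of T cell receptor and cytokine signalling, 23 were at least 2-fold lower at ZT16 than at ZT12, against 20.3% of all genes. None were higher, against 22.3%. An unadjusted limma p under 0.05 was found for 11, against 4.00% of all genes, with none passing over all genes. Stat4, a factor of interleukin signalling, had levels of 0.70, 2.01, 1.09, 3.19, -2.87 and -2.44, a range of 67.0-fold. At the narrow end were Nfatc2, a calcium-controlled factor, with 2.23-fold and Dgkz, a diacylglycerol kinase that damps signalling, with 1.93-fold.

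Of 18 further genes of the T lineage, 16 were lower at ZT16 than at ZT12 (20.3% of all genes) and 1 was higher (22.3%), and 8 had an unadjusted limma p under 0.05 (4.00%). Slamf6, a SLAM family receptor, had a range of 65.0-fold and Ikzf1, a factor of all lymphocytes, 60.4-fold. Cd44, an adhesion receptor that many cell types make, ranged over 3.99-fold and Ikzf3 over 2.36-fold. Slamf6 and Ikzf1 shared their highest array, ZT12, and their lowest, ZT16.

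Of 15 further cytotoxic and NK cell genes, 13 were lower at ZT16 than at ZT12, against 20.3% of all genes, 1 was higher, against 22.3%, and 4 had an unadjusted limma p under 0.05, against 4.00%. Cst7, a cystatin of cytotoxic cells, had levels of -0.82, 1.94, -0.07, 2.12, -4.17 and -4.35, a range of 88.4-fold. The NK cell receptor genes Klrd1 and Klrg1 ranged over 37.2-fold and 31.9-fold. Ccl4, a chemokine, ranged over 3.10-fold, and Klrk1, the receptor NKG2D, over at least 5.15-fold, with dim spots at both ZT16 and ZT20. Wide ranges were therefore present among cytotoxic genes outside the set, beside the narrow one of Prf1.

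Sums over markers of B cells and of all leukocytes moved with the set. Summed over the 33 genes, the signal as a multiple of the 75th percentile of the array was 157, 784, 167, 558, 54.1 and 38.6 from ZT0 to ZT20. Over 15 of 15 B cell genes it was 57.6, 210, 55.7, 133, 6.19 and 6.40, with Cd79b, a chain of the B cell receptor, and Spib, a B cell transcription factor, highest at ZT4 and lowest at ZT16. At ZT16, 13 of the 15 were lower than at ZT12 and 1 was higher, Pax5 by 7.23-fold, which is named after its value was seen. Over 12 of 12 genes of all leukocytes the sum was 171, 591, 143, 384, 15.1 and 14.9, among them Coro1a and Cd52. Bright probes weigh most in such sums, at ZT16 Cd3e and Skap1 in the set, so their folds are not compared between lists. The median difference between ZT16 and ZT12 was -5.60 in the set, -3.97 in B cell genes and -4.69 in leukocyte genes. The B cell and leukocyte sums were thus high at ZT4 and ZT12 and low at ZT16 and ZT20, as in the set. Not every leukocyte gene was high at ZT4. There, 8 of 12 were at least 2-fold higher than at ZT0, against 25.8% of all genes, and 3 were lower, against 21.5%. The lower ones were Ptprc, Cd53 and Dock2, by 3.12-fold, 3.01-fold and 4.39-fold, named after their values were seen.

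The sum over 8 of 10 genes of lymphoid stroma and vessels was 31.2, 122, 47.9, 140, 5.78 and 7.81. Glycam1, made by the high endothelial venules through which lymphocytes enter lymph nodes, had levels of 2.53, 5.45, 4.46, 5.74, -0.15 and 1.35, and Madcam1, a vascular ligand for lymphocyte homing, had 2.68, 4.92, 2.48, 4.17, -1.09 and -0.18. All 8 genes were at least 2-fold lower at ZT16 than at ZT12, against 20.3% of all genes, and all 8 were well above background on every array. Over 11 of 13 macrophage genes, among them Csf1r and C1qc, the sum was 26.0, 225, 24.2, 108, 8.60 and 9.85, and 10 of 11 were lower at ZT16 than at ZT12. At ZT4, 7 of 11 were at least 2-fold higher than at ZT0 (25.8% of all genes) and 1 was lower (21.5%), Lyz2 by 9.40-fold. At ZT8, 7 were lower than at ZT4 (21.3%) and 3 were higher (15.9%). The higher ones were Lyz2, C1qa and Cd14, by 21.6-fold, 2.38-fold and 2.16-fold, named after their values were seen.

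Most islet endocrine genes went the other way. Over 16 of 17 such genes the median deviation was 1.01, -1.68, 0.37, -2.48, 1.26 and 1.22. At ZT16, 13 of 16 were at least 2-fold higher than at ZT12, against 22.3% of all genes, with 0 lower, against 20.3%. The others were the hormone genes Ins1, Ins2 and Iapp, higher by 1.32-fold, 1.11-fold and 1.53-fold. Ins1, named after its value was seen, and Ins2 were highest at ZT4. The part of the endocrine genes, and that of the B cell, leukocyte, stroma, macrophage and neutrophil genes, in the values of the set was not tested. Over 7 of 10 neutrophil and mast cell genes, which include Csf3r and Kit, the median deviation was 0.40, -0.35, 0.49, 0.33, -1.86 and -0.79. These genes did not move together: the neutrophil genes S100a8 and S100a9, named after their values were seen, were 46.6-fold and 41.8-fold higher at ZT4 than at ZT0 and at least 20.3-fold and 99.2-fold lower at ZT16 than at ZT12, while the mast cell genes Mcpt4, Cpa3 and Kit were 11.4-fold, 3.22-fold and 2.66-fold lower at ZT4 than at ZT0. Over 11 acinar genes, among them Ctrb1 and Try5, it was 0.76, 0.49, -0.47, -1.27, 0.04 and 0.24. Over 9 of 10 reference genes, among them Eef1a1 and Ppia, it was 0.83, 0.80, -0.50, 0.15, -0.40 and -0.53, with its high values at ZT0 and ZT4. Actb and B2m of that list, named after their values were seen, were 7.94-fold and 6.44-fold lower at ZT16 than at ZT12, and the other 7 were less than 2-fold lower or higher there.

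**Figure D5:**
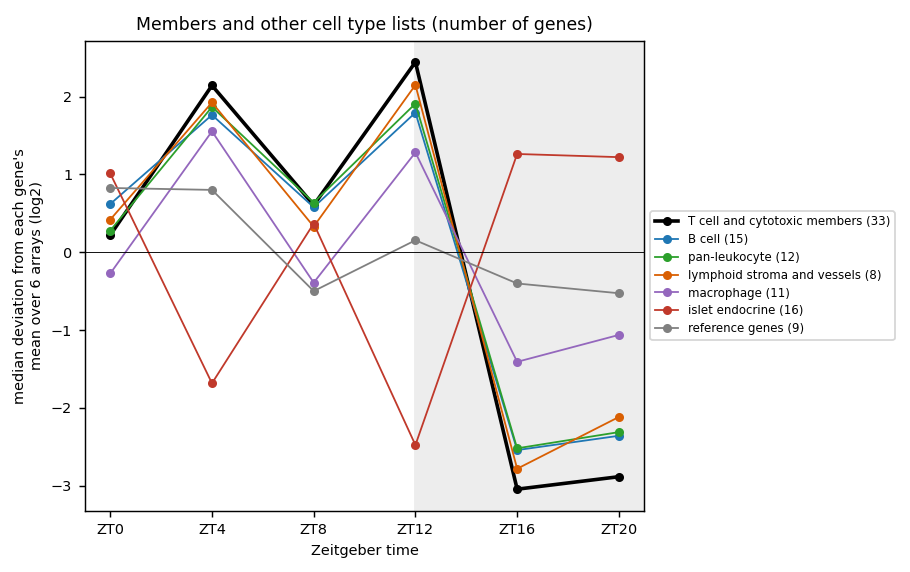
Median, over the genes of each list, of the deviation (log2) from the mean of each gene over the 6 arrays, against zeitgeber time, with 1 array per time and grey for the dark phase. The T cell and cytotoxic genes (33) run with the B cell, leukocyte, lymphoid stroma and macrophage lists, at 2.44 at ZT12 and -3.04 at ZT16, and the islet endocrine list runs opposite, at -2.48 at ZT12 and 1.26 at ZT16.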

How the data were processed

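Total RNA from islets was labelled with Cy3 and hybridised to 1-colour Agilent arrays, 1 for each of 6 time points, per the labels. Agilent Feature Extraction 11.0.1.1 made the scanner files, per the file headers. Per the file headers, the deposited processed signal is an intensity on a linear scale from which that software had subtracted background, with no normalization between arrays. Among the other deposited columns were median spot and background signals and 0 or 1 flags that mark detected, saturated and outlier spots. The authors' deposited table held log2 values of 30170 probes whose making was not given in the sources used here; its columns had medians of 8.62 to 8.63 and correlated with the log2 signal of their own arrays at Pearson's r of 0.9987 to 0.9998 across probes.

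Outlier spots were dropped and the spots of a probe averaged. Log2 signals minus the 75th percentile of the array were used for probes well above background on at least 3 of 6 arrays and not an outlier on all spots of any array (28795 probes; 1414 removed as outliers), with the probe of highest mean per gene (24127 genes). Symbols came from RefSeq names of GRCm38.p6 by accession, for 27234 of 39429 probes. A 24 h cosine was fitted with limma 3.58.1 in R 4.3.3 (moderated F test, 3 residual degrees of freedom), with Benjamini-Hochberg adjustment over all genes. The fit was also run on simulated data. Noise there was independent and smaller than in the fits of the set, so that run does not test the fit at this noise. Steps between times have no test. For dim spots (not well above background) folds are bounds: the dim value was raised to the lowest signal among detected probes on that array, and no fold is given when both spots were dim. Medians and summed signals used measured values.

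The set and all lists were chosen with earlier results of these data known. Genes named were all 33 of the set, in each further T or NK cell list the 3 widest and 2 narrowest ranges, and in each other list the 2 genes of highest mean; a few of these are not reported here. Alternatives were other scalings, background correction, filters, probe rules, left-out arrays, an unmoderated F test and scan as a covariate. The number of arrays limits the precision.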

Additional observations from a re-analysis of the deposited data

How the results depend on the processing

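Of 504 comparisons of a count or median with an alternative setting, 468 stayed within 1.5 times (counts) or 0.58 log2 units (medians) and 36 moved further. Among all of these, 15 medians, most of them near 0, changed sign, 9 of them medians of all genes. The ZT8 minus ZT4 median of all genes, 0.06 as reported, was -0.35 with each array scaled to its median, and the ZT20 minus ZT16 median of the set, 0.14 as reported, was -0.05 under quantile normalization and with the authors' table and -0.08 under median scaling. The highest-array and lowest-array counts were added to the alternatives after the data were seen. The cause of these moves was not tested. Under quantile normalization the ZT8 minus ZT4 median was -0.91, 15 genes were lower at ZT8, 9 were highest at ZT4 and 12 lowest at ZT16; with the authors' table the same values were -0.92, 15, 9 and 12. With each array scaled to its median, 1 gene was lower at ZT4 than at ZT0, 1 was higher at ZT8 than at ZT4, 11 were lowest at ZT16 and 20 at ZT20. With normexp background correction, 1 gene was lower at ZT4 than at ZT0, 1 higher at ZT8 than at ZT4, 0 lower at ZT12 than at ZT8 and 1 naive-state gene highest at ZT4; the median of all genes for ZT8 minus ZT4 was then -0.57, and the medians were -2.72 (ZT16) and -2.71 (ZT20) for signalling and -2.47 (ZT16) for naive-state genes. With genes well above background on all 6 arrays, 1 gene was higher at ZT8 than at ZT4, 0 were lower at ZT12 than at ZT8, and the receptor median at ZT12 was 2.08; with outlier spots kept, the receptor median at ZT0 was 1.13, against -0.19 as reported. With the mean of all probes the cytotoxic medians were -1.53 (ZT16) and -2.18 (ZT20). Leaving out 1 array, the genes at an unadjusted limma p under 0.05 numbered 2 to 25 in the set and 347 to 4026 among all genes, and 0 passed after adjustment. The F test without shrinkage gave 2 genes of the set, and scan as a covariate 3 of the set and 440 of all. No paired analysis was possible because each time point had 1 array.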
